A study of Mus musculus with 6 samples.

Results

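Laminins are large secreted glycoproteins of the basement membrane, the thin matrix sheet around each muscle fibre. Each laminin is a cross-shaped trimer of an alpha, a beta and a gamma chain, and the alpha chain carries the globular domains that bind integrins and dystroglycan on the cell surface. In adult skeletal muscle the alpha2 chain is the main one of the fibre, the beta2 chain marks the neuromuscular junction, and gamma1 is the gamma chain of most laminins. Loss of alpha2 causes a congenital muscular dystrophy.

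The 9 laminin chain genes examined here are *Lama1*, *Lama2*, *Lama3*, *Lama4*, *Lama5*, *Lamb1*, *Lamb2*, *Lamb3* and *Lamc1*, found by their symbols among the 54525 gene rows of the count tables. RNA-seq was performed on C2C12 cells, an established, subcloned mouse myoblast line, with wild type (WT) genotype and no treatment. The groups were 3 samples of proliferating myoblasts (day 0, D0), grown in fetal bovine serum, and 3 samples of myotubes after 5 days of differentiation (D5) in horse serum. All 6 libraries come from this line alone, and the labels give its cell type as myoblasts on both days.

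The libraries held 36555048 to 40895840 counts on genes in myoblasts and 25449759 to 25811300 in myotubes. The day was visible in genes that mark the muscle programme, since 7 of 7 differentiation markers, such as *Myog* and *Myh3*, rose at D5 and 5 of 5 proliferation markers, such as *Mki67*, fell. Of all genes tested, 42.2% were higher at D5 and 40.8% were lower. Levels are CPM, counts relative to the library total, after TMM scaling. Differences between the days were tested in edgeR with its quasi-likelihood test over 16290 genes, and a gene was called at a Benjamini-Hochberg adjusted p below 0.05. RNA was taken from whole cultures, so fewer cells of a kind and less RNA per cell cannot be told apart.

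The laminin chains moved in both directions between myoblasts and myotubes. *Lama2*, *Lama3*, *Lama4* and *Lamb3* rose at D5, and *Lama5*, *Lamb1*, *Lamb2* and *Lamc1* fell, while *Lama1* was too low to be tested. The 8 tested chains were thus 4 higher and 4 lower, where 42.2% of all genes tested were higher and 40.8% were lower. *Lama3* and *Lama4* passed the filter on low counts through their D5 libraries alone, so they could only be called higher. With at least 10 counts required in every library, neither was tested, and 2 chains were higher and 3 lower (41.9% of all genes each way). The median log2 fold change of the 8 was 0.09, which rests in part on *Lama3* and *Lama4*, against 0.00217 over all genes tested. The sum of the 9 chains was 1247, 1271 and 1261 CPM in D0 replicates 1, 2 and 3 and 948, 973 and 955 CPM in D5 replicates 1, 2 and 3, so every myotube library had a lower sum than every myoblast library. None of the 50-base stretches in the transcripts of a laminin chain occurs in another chain (0% shared for each gene). The exons of *Lama2* overlap a gene on the opposite strand over 3.86% of their length and those of *Lama3* over 1.83%, and the other 7 chains have no such overlap.

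**Figure D1:**
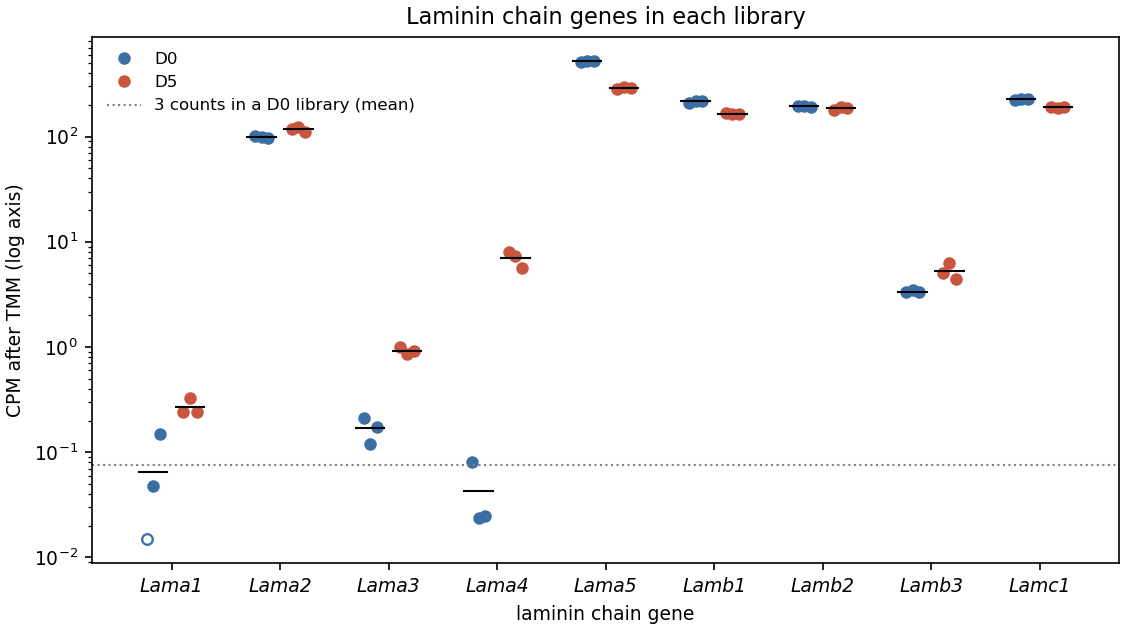
Level of each laminin chain gene in CPM after TMM scaling, on a log axis. Each point is 1 library (3 at D0, 3 at D5), black lines are group means, the open point stands for 0 counts, and the dotted line is the level of 3 counts in a D0 library. *Lama5* drops from 519.6 to 289 CPM, and *Lama4* leaves the floor at D0 for 6.99 CPM at D5.

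The alpha chains set which receptors a laminin can bind. *Lama5* encodes the alpha5 chain, found widely in basement membranes, and lies on chromosome 2 of GRCm38 from 180176373 to 180225859 on the minus strand (ENSMUSG00000015647.9). It had 512, 526 and 522 CPM in D0 replicates 1, 2 and 3 and 282, 296 and 289.7 CPM in D5 replicates 1, 2 and 3. All myotube libraries lay far below all myoblast libraries, and the libraries of a day were close to each other. The group means were 519.6 ± 7.15 and 289 ± 7.07 CPM (SD, n = 3 each), which put *Lama5* at 55.6% of its D0 level in the fit (log2 fold change -0.85, standard error (SE) 0.032, edgeR adjusted p = 9.33e-21). It was the largest fall among the tested laminin chains.

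*Lama2*, the gene of the muscle alpha2 chain, lies on chromosome 10 from 26980036 to 27619758 on the minus strand (ENSMUSG00000019899.16). Its D0 libraries had 101, 99.5 and 96.7 CPM and its D5 libraries 118, 124 and 110.2 CPM. The D5 values were all above the D0 values, but the rise was small, from 99.0 ± 2.16 to 117 ± 6.90 CPM (SD, n = 3 each). The log2 fold change was 0.24 (SE 0.039, edgeR adjusted p = 1.23e-06) and turned to -0.29, not past the threshold (adjusted p = 0.689), with scaling to the ERCC spike-ins.

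*Lama4* encodes the alpha4 chain, which is known from the basement membranes of blood vessels, nerve and developing muscle, and lies on chromosome 10 from 38965515 to 39110188 (ENSMUSG00000019846.11). The myoblast libraries held 3, 1 and 1 counts and the myotube libraries 201, 180 and 141. The myoblast libraries were at or under 3 counts, the limit below which a gene was treated as not detected, whereas each myotube library held a clear signal of 8.00, 7.30 and 5.67 CPM. Set against a floor of 3 counts in each D0 library, the D5 mean of 6.99 ± 1.20 CPM (SD, n = 3) was at least 92.8-fold higher (edgeR adjusted p = 2.42e-20). The fitted log2 fold change depends on the few D0 counts, being 7.26 with all libraries and 7.94 without D0 replicate 1, the library with 3 counts.

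*Lama3*, whose product alpha3 is typical of epithelial laminins, lies on chromosome 18 (ENSMUSG00000024421.16). It had 8, 5 and 7 counts at D0 and 25, 21 and 23 counts at D5. It stayed a low message, 0.169 ± 0.0475 CPM in myoblasts and 0.924 ± 0.0716 CPM in myotubes (SD, n = 3 each), yet all D5 libraries were above all D0 libraries. The log2 fold change was 2.44 (SE 0.33, edgeR adjusted p = 7.53e-08). *Lama1*, the alpha1 chain of early embryonic basement membranes (chromosome 17 from 67697259 to 67822647, ENSMUSG00000032796.8), had 0, 2 and 6 counts at D0 and 6, 8 and 6 counts at D5 and did not pass the filter on low counts. Without that filter its log2 fold change was 1.89 (SE 0.64, edgeR adjusted p = 0.0072), which rests on these few reads.

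*Lamb1* encodes beta1, the beta chain of most tissues, and lies on chromosome 12 from 31265234 to 31329644 (ENSMUSG00000002900.16). It had 210.04, 218 and 219.7 CPM in the D0 libraries and 167, 163 and 164 CPM in the D5 libraries. The D5 libraries were all lower, at means of 216 ± 5.18 and 165 ± 2.12 CPM (SD, n = 3 each), with a log2 fold change of -0.39 (SE 0.033, edgeR adjusted p = 3.16e-12).

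*Lamb2*, the beta2 chain of the neuromuscular synapse, lies on chromosome 9 from 108479736 to 108490530 (ENSMUSG00000052911.9). It had 197, 196 and 191 CPM at D0 and 178, 189.7 and 188 CPM at D5. The groups did not overlap, but the lowest D0 library and the highest D5 library nearly met. The means of 195 ± 3.07 and 185 ± 6.35 CPM (SD, n = 3 each) gave a log2 fold change of -0.07 (SE 0.034, edgeR adjusted p = 0.0495). This call was lost with DESeq2 (adjusted p = 0.0927), with at least 10 counts required in every library (edgeR adjusted p = 0.0523) and without D0 replicate 1 (0.072), D0 replicate 2 (0.0821), D5 replicate 1 (0.289) or D5 replicate 3 (0.0538). Over the alternatives the adjusted p ran from 7.56e-05, with total counts, to 0.351, with the ERCC spike-ins.

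*Lamb3*, the beta3 chain of epithelial laminin, lies on chromosome 1 from 193207699 to 193343878 (ENSMUSG00000026639.18). It had 3.34, 3.45 and 3.30 CPM at D0 and 5.02, 6.25 and 4.38 CPM at D5. The D0 libraries were nearly equal, and the D5 libraries were all higher and more spread, at 3.36 ± 0.0764 and 5.22 ± 0.950 CPM (SD, n = 3 each). The log2 fold change was 0.63 (SE 0.13, edgeR adjusted p = 4.30e-05).

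*Lamc1*, the gamma1 chain, lies on chromosome 1 from 153218922 to 153332786 on the minus strand (ENSMUSG00000026478.14). It had 224, 228 and 228 CPM at D0 and 189.9, 186 and 193 CPM at D5. All D5 libraries were lower, with means of 227 ± 2.46 and 189 ± 3.43 CPM (SD, n = 3 each) and a log2 fold change of -0.26 (SE 0.032, edgeR adjusted p = 1.39e-08). A further gamma chain gene, not among the 9, is given for comparison. *Lamc3*, the gamma3 chain, rose from 4, 1 and 4 counts to 44, 42 and 37 counts (log2 fold change 4.39, edgeR adjusted p = 1.30e-12). Like *Lama3* and *Lama4*, it passed the filter on low counts through its D5 libraries alone, so it could only be called higher. It was not tested with at least 10 counts in every library.

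Promoter windows of 300 bases (250 before and 50 after a RefSeq transcript start, GRCm38.p6) were at hand for 5 of the 9 chains. The windows are shown for *Lama5*, *Lamb1* and *Lamb2*, which fell, and for *Lama2*, the only one of the 3 alpha chains that rose with a window used here. They are given on the strand of the gene. Every match to the GC box GGGCGG, the E-box CAGCTG, the AP-1 motif TGACTCA and the TATA box TATAAA, on either strand, is in capitals. The windows are chr2:180225810-180226109, chr12:31265043-31265342, chr9:108479612-108479911 and chr10:27616893-27617192.

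Lama5: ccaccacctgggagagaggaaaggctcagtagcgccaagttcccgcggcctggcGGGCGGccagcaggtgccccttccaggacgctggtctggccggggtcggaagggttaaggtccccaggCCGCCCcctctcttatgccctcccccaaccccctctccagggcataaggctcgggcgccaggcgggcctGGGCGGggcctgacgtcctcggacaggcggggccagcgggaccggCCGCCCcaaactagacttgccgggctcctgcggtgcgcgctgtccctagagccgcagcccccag

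Lamb1: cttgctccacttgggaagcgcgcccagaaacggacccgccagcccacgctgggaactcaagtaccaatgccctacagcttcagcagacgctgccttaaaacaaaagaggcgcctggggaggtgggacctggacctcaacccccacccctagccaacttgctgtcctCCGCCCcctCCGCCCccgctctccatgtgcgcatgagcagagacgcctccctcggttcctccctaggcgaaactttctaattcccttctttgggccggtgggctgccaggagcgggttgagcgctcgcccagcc

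Lamb2: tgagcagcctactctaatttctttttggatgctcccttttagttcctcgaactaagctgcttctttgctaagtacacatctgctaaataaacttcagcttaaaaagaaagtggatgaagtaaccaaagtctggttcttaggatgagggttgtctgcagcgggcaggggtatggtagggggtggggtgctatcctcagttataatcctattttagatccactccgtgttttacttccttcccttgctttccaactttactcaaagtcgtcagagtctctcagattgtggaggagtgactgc

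Lama2: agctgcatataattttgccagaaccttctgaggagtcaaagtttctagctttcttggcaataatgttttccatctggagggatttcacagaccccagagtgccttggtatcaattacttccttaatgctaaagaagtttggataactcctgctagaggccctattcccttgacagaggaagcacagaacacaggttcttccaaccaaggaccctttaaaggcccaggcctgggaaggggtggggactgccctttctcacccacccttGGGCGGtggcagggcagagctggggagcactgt

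The capitals in these windows are all GC boxes. The *Lama5* window held 4, that of *Lamb1* held 2 and that of *Lama2* held 1, while 35.7% of the 32851 promoter windows of the same length held at least 1. No window of *Lamb2* or *Lamb3* held a GC box, and 1 of the 2 overlapping *Lamb3* windows held the E-box CAGCTG, which occurs in 16.3% of all windows. The letters TATAAA (13.6% of all windows) and TGACTCA (5.2%) were in none of these windows. The windows differed in base composition, with 72.7% G and C for *Lama5*, 63.7% for *Lamb1*, 59.3% for *Lamb3*, 50.3% for *Lama2* and 44.0% for *Lamb2*, around a median of 52.7% over all windows.

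Levels were compared between chains only per length, as TPM (CPM-like values corrected for gene length) from the union of each gene's exons. In myoblasts the order was *Lama5* (158 ± 4.37 TPM), *Lamb2* (110.6 ± 0.995), *Lamc1* (94.8 ± 2.46), *Lamb1* (75.3 ± 2.95), *Lama2* (21.0 ± 0.194) and *Lamb3* (1.76 ± 0.047), followed by *Lama3*, *Lama1* and *Lama4* (SD, n = 3). The ranges of *Lama3* and *Lama1* overlapped, as did those of *Lama1* and *Lama4*. In myotubes *Lamb2* came first (94.3 ± 1.40 TPM), then *Lama5* (78.7 ± 0.479), *Lamc1* (70.99 ± 2.24), *Lamb1* (51.4 ± 1.71) and *Lama2* (22.3 ± 1.28), all without overlap of neighbours. *Lamb3* (2.44 ± 0.422 TPM) and *Lama4* (1.80 ± 0.330) overlapped at D5, above *Lama3* and *Lama1*. With the longest coding transcript as the length, *Lamb1* stood above *Lamb2* and *Lamc1* at D0, and *Lama5* fell to the third place at D5 behind *Lamb2* and *Lamb1*.

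The make-up of the alpha and the beta chains was then compared. A share within a class is taken within 1 library and does not depend on how libraries are scaled. *Lama5* made up 88.2 ± 0.324% of the alpha chain TPM at D0 and 76.3 ± 1.13% at D5, and *Lama2* 11.7 ± 0.328% and 21.6 ± 0.857% (SD, n = 3 each). *Lama4* went from 0.00691 ± 0.00526% to 1.74 ± 0.297%, and *Lama3* and *Lama1* stayed at 0.259 ± 0.0261% or less. The alpha class thus remained mostly *Lama5* in myotubes, with a larger share of *Lama2* in each D5 library than in any D0 library. The ratio of *Lama5* to *Lama2* was 7.28, 7.58 and 7.74 in the D0 libraries and 3.44, 3.42 and 3.77 in the D5 libraries, which do not overlap. With the longest coding transcript as the length, this ratio was 4.43 in myoblasts and 2.09 in myotubes, the share of *Lama2* was 18.4% and 31.4%, and *Lama4* took 2.97% in myotubes. For a single ratio or share, the exact two-sided permutation test of 3 libraries against 3 gave p = 0.1, the smallest it can give.

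Among the beta chains, the ratio of *Lamb2* to *Lamb1* TPM was 1.53, 1.47 and 1.42 at D0 and 1.74, 1.90 and 1.87 at D5. The share of *Lamb2* in the beta chains was 58.9 ± 0.883% at D0 and 63.6 ± 1.04% at D5, and that of *Lamb3* was 0.937 ± 0.0148% and 1.65 ± 0.285% (SD, n = 3 each). Which of *Lamb1* and *Lamb2* was the larger depended on the length used, since the ratio was 0.926 at D0 and 1.16 at D5 with the longest coding transcript, but it was higher at D5 either way.

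The summed levels of both classes did not overlap between the days. The alpha chains summed to 179 ± 4.33 TPM at D0 and 103 ± 1.90 TPM at D5, and the beta chains to 188 ± 3.48 and 148 ± 0.224 TPM (SD, n = 3 each). Relative to *Lamc1*, the chain that most trimers share, *Lama5* had a TPM ratio of 1.66 ± 0.00801 at D0 and 1.11 ± 0.0421 at D5. *Lama2* had a ratio to *Lamc1* of 0.221 ± 0.00687 and 0.314 ± 0.0241, and *Lamb1* one of 0.794 ± 0.0106 and 0.725 ± 0.0128 (SD, n = 3 each). With the longest coding transcript, the ratio of *Lama2* to *Lamc1* was 0.346 and 0.491, and that of *Lamb1* to *Lamc1* was 1.26 and 1.14, so that *Lamb1* lay above *Lamc1*.

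**Figure D2:**
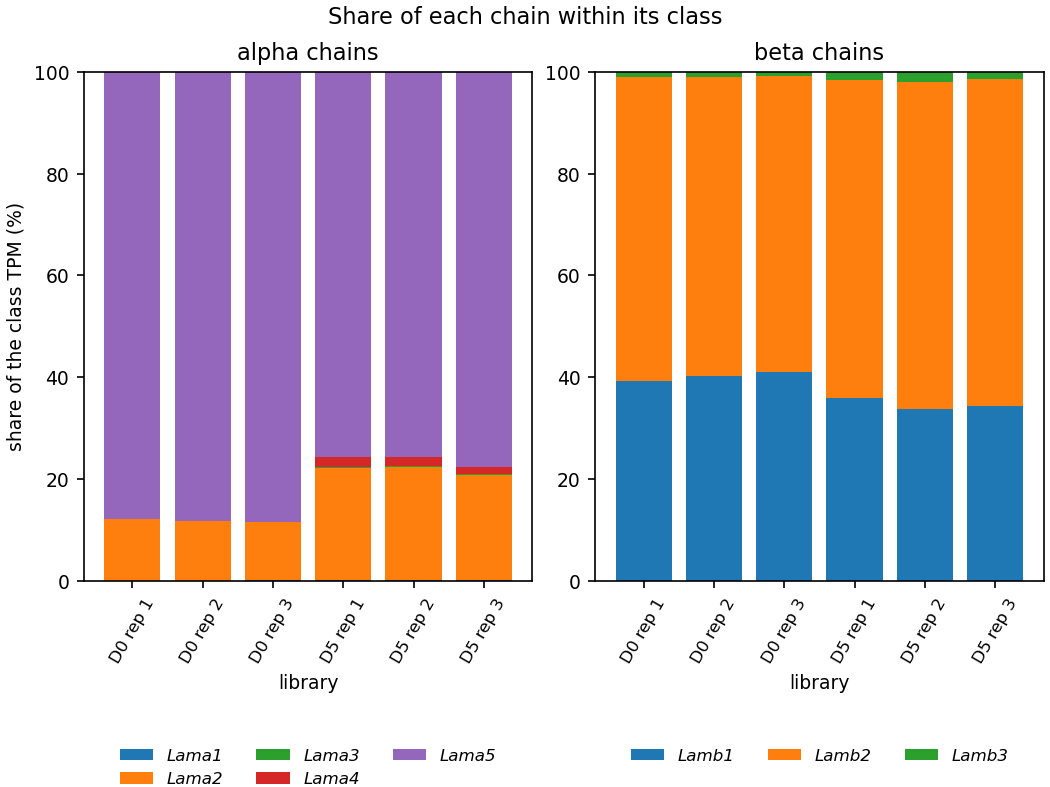
Share of each chain in the summed TPM of the alpha chains or the beta chains, in percent, 1 bar per library (D0 and D5, 3 replicates each). *Lama5* takes 88.2% of the alpha class at D0 and 76.3% at D5 on average, and *Lama2* takes 11.7% and 21.6%.

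The size of the changes depended on the scaling of the libraries. ERCC spike-ins, synthetic RNAs added to each sample, took 0.726% to 0.859% of the counts at D0 and 0.720% to 2.09% at D5. Scaled to them, the median of all genes tested lay at -0.58, and 5560 genes passed the threshold in place of 13510, with 11.1% of all genes higher and 23% lower. The shares of all genes were 38.6% higher and 44.5% lower with total counts, and 40.3% and 38.1% with DESeq2. With the ERCC spike-ins *Lama3* and *Lama4* were still higher (log2 fold changes 1.80 and 6.77) and *Lama5* still lower (-1.40). *Lamb1*, *Lamb2*, *Lamc1*, *Lama2* and *Lamb3* did not pass the threshold with the spike-ins. *Lama2* at -0.29 and *Lamb3* at 0.14 were above that shifted median, and *Lamb1* (-0.96), *Lamc1* (-0.83) and *Lamb2* (-0.63) below it. With total counts, upper-quartile normalization or DESeq2, the 8 chains kept their directions.

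**Figure D3:**
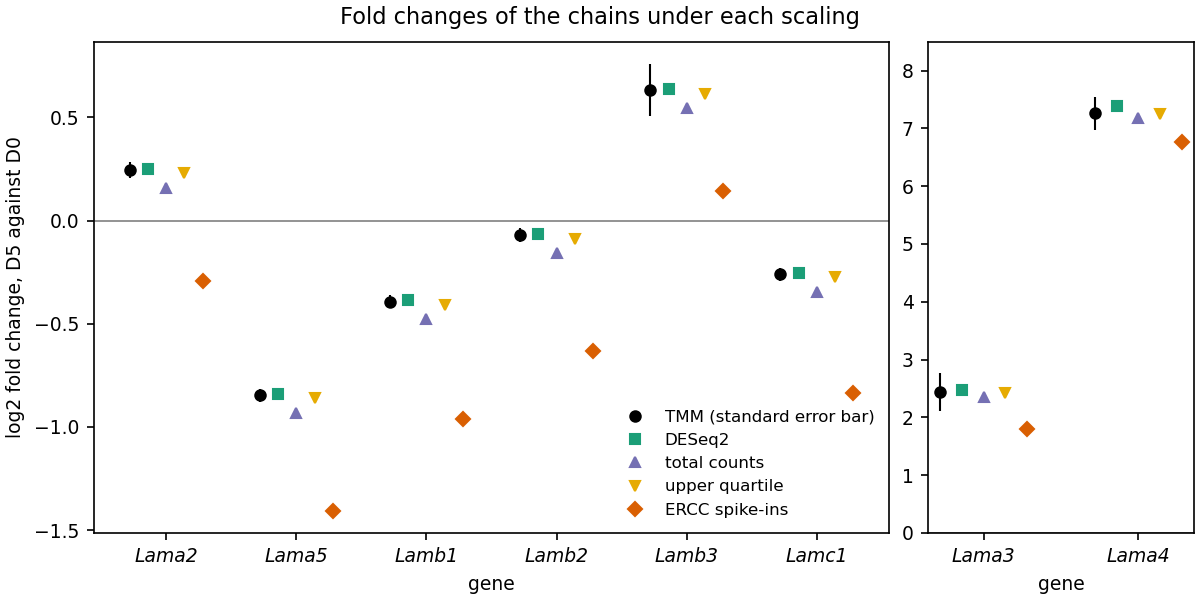
Log2 fold change of each tested chain, D5 against D0, under 5 scalings. The bar on the TMM point is its standard error, and the right panel has its own axis for *Lama3* and *Lama4*, the latter at or under 3 counts in each D0 library. The spike-in values lie below the others for each gene, and *Lama2* crosses 0, from 0.24 to -0.29.

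Laminins act through receptors on the cell surface. Of 9 laminin receptor genes, 6 rose at D5, 1 fell, 1 was not called and 1 was not tested, with a median log2 fold change of 1.64. That median rests in part on *Itga1* (2, 3 and 2 counts at D0), *Itgb4* (7, 16 and 18 counts at D0) and *Bcam* (16, 12 and 18 counts at D0). All 3 passed the filter on low counts through their D5 libraries, where they were high. With at least 10 counts in every library *Bcam* was still tested, but *Itga1* and *Itgb4* were not. Over all genes tested, 42.2% were higher and 40.8% lower. With the ERCC spike-ins 4 receptor genes were higher and 1 lower (11.1% and 23% of all genes), with total counts 5 and 2 (38.6% and 44.5%), and with at least 10 counts in every library 4 and 1 (41.9% of all genes each way). *Dag1*, which encodes dystroglycan, the receptor that links laminin to dystrophin, rose from 179.6 ± 3.74 to 819.6 ± 12.1 CPM (SD, n = 3 each; log2 fold change 2.19, edgeR adjusted p = 2.83e-31). *Itga7*, the integrin alpha7 subunit of muscle, rose from 695 ± 14.6 to 1469.9 ± 25.0 CPM (log2 fold change 1.08), a call lost with the ERCC spike-ins. Its partner *Itgb1*, the beta1 subunit, fell from 1681 ± 28.1 to 978 ± 28.7 CPM (log2 fold change -0.78). *Itga3*, the alpha3 subunit, rose little (log2 fold change 0.12, edgeR adjusted p = 0.00378). That call was lost with total counts, with no filter, without D0 replicate 1 and with the ERCC spike-ins, where the sign turned (-0.45).

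The largest rises among the receptors were those of *Itga1*, at least 83.9-fold higher than the floor, *Bcam* and *Itgb4*. All 3 passed the filter on low counts through their D5 libraries, where they were high. *Bcam*, the Lutheran glycoprotein that binds alpha5 laminins, had 16, 12 and 18 counts at D0 and 562, 552 and 570 at D5 (log2 fold change 5.86). *Itgb4*, the beta4 subunit, had a log2 fold change of 2.69. *Itga6*, the alpha6 subunit, was not called, with 70.1 ± 2.19 and 69.7 ± 1.69 CPM (SD, n = 3 each; edgeR adjusted p = 0.855). With total counts it was called lower, with a log2 fold change of -0.09 (edgeR adjusted p = 0.029).

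Of 12 genes of laminin's partners in the basement membrane, 4 rose, 6 fell and 2 were not tested, with a median log2 fold change of -0.35. With the ERCC spike-ins 2 were higher and 4 lower (11.1% and 23% of all genes). With at least 10 counts in every library 3 were higher and 5 lower (41.9% of all genes each way), and *Col4a3* and *Col4a6* were not tested. In the main fit *Col4a6* passed the filter on low counts through its D5 libraries alone and *Col4a3* through its D0 libraries alone. Each could thus only be called in the direction it took, and both are in the main counts and median. The 4 of 10 tested that rose are close to the 42.2% of all genes tested that were higher, and 40.8% of all were lower. The nidogens, which bridge laminin and collagen IV, went opposite ways. *Nid1* fell from 426 ± 9.89 to 179 ± 7.07 CPM and *Nid2* rose from 16.1 ± 0.947 to 470.3 ± 15.4 CPM (SD, n = 3 each; log2 fold changes -1.25 and 4.87, edgeR adjusted p = 2.38e-24 and 7.90e-37). The minor collagen IV chains were low, *Col4a3* with 20, 15 and 29 counts in myoblasts and 0, 1 and 0 in myotubes (at least 4.45-fold lower) and *Col4a6* at least 9.25-fold higher in myotubes. The common collagen IV chains *Col4a1* and *Col4a2* fell, with log2 fold changes of -1.51 and -1.84, whereas *Col4a5* rose (1.59), the last a call lost with the ERCC spike-ins. *Hspg2*, the gene of perlecan, stayed the highest of the list in CPM, with a log2 fold change of -0.21, and *Agrn*, the gene of agrin, had 0.34, which turned to -0.22 with the ERCC spike-ins, where neither passed the threshold.

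Dystroglycan binds laminin through a sugar chain that 10 listed genes help to build. Of these, 6 rose, 2 fell, 1 was not called and 1 was not tested, with log2 fold changes from -0.49 to 1.00 and a median of 0.35, where 42.2% of all genes tested were higher and 40.8% lower. The pair that fell was *Pomt1* (-0.49) and *Pomt2* (-0.35), which start the sugar chain with a mannose, and the largest rises were those of *Pomgnt2* (1.00) and *B3galnt2* (0.88). The rise of *Pomgnt1* (0.08, edgeR adjusted p = 0.0409) was lost with DESeq2 (adjusted p = 0.055), total counts, upper-quartile or ERCC scaling, no filter, and without D0 replicate 1 (adjusted p = 0.2), 2 (0.1) or 3 (0.12) or D5 replicate 2 (0.14) or 3 (0.058), and its sign turned with total counts and with the ERCC spike-ins (-0.47), where *B4gat1*, *Pomk* and *Rxylt1* lay between the shifted median of all genes and 0. With the ERCC spike-ins 0 of the list passed the threshold in edgeR (1 at an unadjusted p below 0.05), where 11.1% of all genes were higher and 23% lower, against 5 higher and 2 lower with DESeq2.

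**Figure D4:**
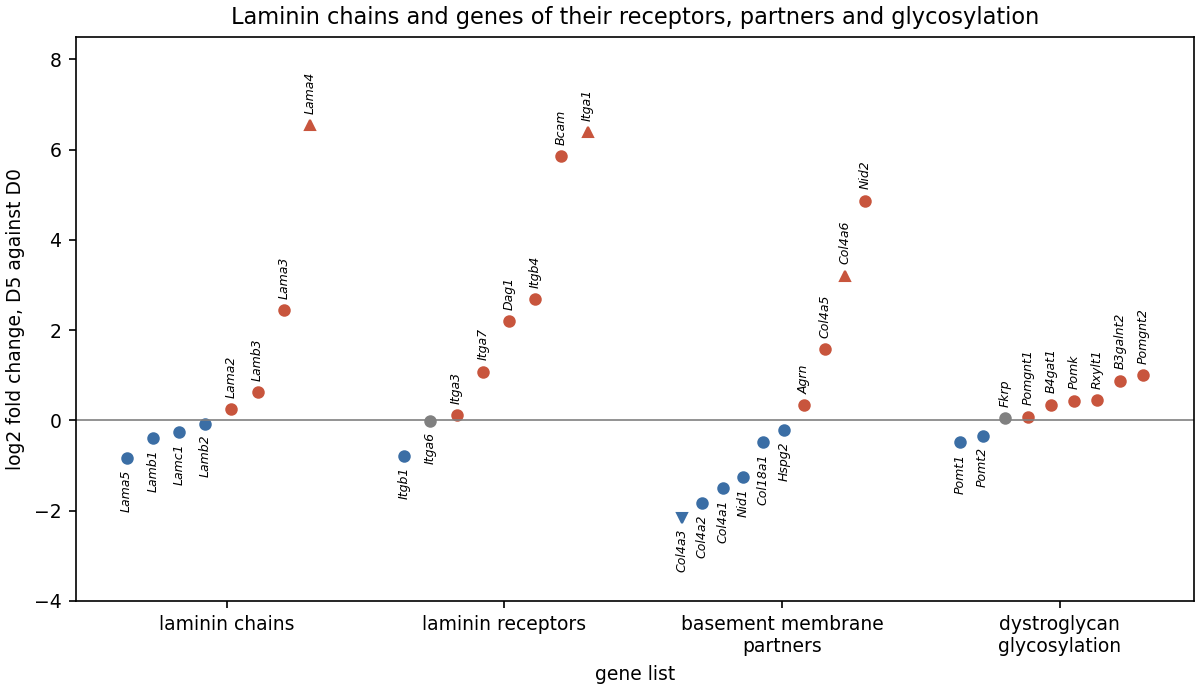
Log2 fold change, D5 against D0, of the tested genes among the laminin chains, their receptors, their basement membrane partners and the dystroglycan glycosylation enzymes. Red points rose, blue points fell and grey points were not called; triangles are bounds for genes at or under 3 counts in each library of a group. The chains lie between -0.85 (*Lama5*) and the bound of *Lama4* at 6.54, and the glycosylation genes stay between -0.49 and 1.00.

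The gene of these 3 lists with the most similar profile was sought for each tested chain, as the smallest Euclidean distance between centred log2 CPM values over the 6 libraries, among 27 genes. It was *Itgb1* for *Lama5* (distance 0.126), *Pomt2* for *Lamb1* (0.125), *Hspg2* for *Lamc1* (0.110), *Itga6* for *Lamb2* (0.0937) and *Agrn* for *Lama2* (0.194). The distances were larger for the low chains, 0.855 between *Lama4* and *Bcam*, 0.515 between *Lama3* and *Dag1* and 0.367 between *Lamb3* and *Rxylt1*. With 2 groups of libraries these distances mostly compare fold changes.

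Marker genes of other cell types that make laminins were read beside the chains that rose. Over all genes tested, 42.2% were higher and 40.8% lower. Of 6 fibroblast markers 5 rose, their sum going from 556 to 580 CPM across the D0 libraries to 4105 to 4291 CPM across the D5 libraries, mostly *Col3a1* (547 and 3729.6 CPM on average), while *Thy1* had at most 1 count in any library. *Dcn*, the gene of decorin, had 12, 13 and 20 counts in myoblasts and 6636, 5646 and 5812 in myotubes, *Pdgfra* 36, 51 and 38 against 647, 589 and 553, and *Lum*, the gene of lumican, 0 in each myoblast library against 301, 209 and 235 (at least 132-fold higher). *Dcn* and *Lum* passed the filter on low counts through their D5 libraries, where they were high. With at least 10 counts in every library 4 fibroblast markers rose (41.9% of all genes each way), and *Lum* was not tested. Of 5 Schwann cell markers 1 rose, *Erbb3*, with a sum of 6.25 to 6.78 CPM at D0 and 216 to 228 CPM at D5, and *Sox10* had at most 1 count in any library. The 5 epithelial markers summed to 0.968 to 1.05 CPM at D0 and 1.87 to 2.61 CPM at D5, where *Cdh1* rose, *Krt14* fell and *Epcam* and *Krt5* had at most 2 counts in any library. Neither *Cdh1* nor *Krt14* was tested with at least 10 counts in every library. The 5 endothelial markers summed to 3.31 to 3.59 CPM at D0 and 0.518 to 0.884 CPM at D5, with *Emcn* at 0 in each library. The 5 adipocyte markers summed to 0.373 to 0.785 CPM at D0 and 23.8 to 24.2 CPM at D5, nearly all *Cebpa*, with *Lep* at 0, and the 5 macrophage markers to 3.18 to 3.42 and 2.37 to 3.04 CPM, mostly *Cd68*, with *Adgre1* at 0 and *Lyz2* at 1, 1 and 0 counts in myoblasts and 4, 10 and 13 in myotubes (not tested after the filter, higher without it at an edgeR adjusted p = 3.5e-07). The part of such cells in the rise of *Lama4*, *Lama3* and *Lamb3* was not tested.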

How the data were processed

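RNA-seq libraries of 6 C2C12 samples were used, 3 at D0 and 3 at D5. The paper does not state whether the samples of a day are separate cultures. The authors deposited raw counts per gene, made with featureCounts on mm10 (GRCm38) per the processing notes. Tophat2 is given as the aligner in the labels and HISAT2 in the paper. The annotation release and the strand setting are not given in the sources used here. The 92 ERCC rows and 1 unnamed row holding the column total entered neither library sizes nor tests. Replicate pairs differed beyond sampling noise (chi-square per degree of freedom 2.28 to 3.71).

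edgeR 4.0.16 (R 4.3.3) gave TMM factors, CPM and the quasi-likelihood test, after filterByExpr. Each SE is the size of the log2 fold change over the root of F. Exonic lengths for TPM and positions came from GENCODE M21, which held 99.9% of the gene rows, and promoter windows from RefSeq. The floor of 3 counts covers counting error only.

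The genes named are the 9 chains, members of fixed lists (those with the largest called changes and those singled out by role) and the nearest profile of each chain. Some list genes are not reported here and are not in the list counts. The members and lists were chosen with earlier results of these data known. Alternatives were DESeq2 1.42.0, other scalings (total counts, upper quartile, ERCC), other filters (none, or 10 counts in each library), leaving out single libraries, a replicate block, and other gene lengths for the shares, of which the longest coding transcript was chosen after seeing the data. On simulated data of 15921 genes for D5 against D0, 91.8% of 2-fold changes were recovered and 6.93% of the calls were false, above the nominal 5%.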

Additional observations from a re-analysis of the deposited data

Results flagged for a closer look

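The ERCC spike-ins, which are outside the comparison of genes, took 1.20% of the counts in D5 replicate 1 and 2.09% in D5 replicate 3, above the highest D0 library at 0.859%. With 3 libraries a day, no test for a stray library was made.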

How the results depend on the processing

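With scaling to the ERCC spike-ins, 5560 genes passed the threshold in place of 13510, 2 laminin chains were higher and 1 was lower, and the log2 fold change of *Lama2* was -0.29. With at least 10 counts in every library 2 chains were higher, since *Lama3* and *Lama4* were then not tested. Without any 1 of the 6 libraries, 13236 to 13599 genes passed the threshold, with 4 higher chains each time and 3 to 4 lower ones, the chain lost being *Lamb2*. *Lama5* took 84.0% of the alpha chains at D0 and 69.7% at D5 in counts without division by length, and 81.5% and 65.3% with the longest coding transcript. *Lamb2* took 47.0% of the beta chains at D0 and 52.2% at D5 in counts without division by length, and 47.6% and 52.7% with the longest coding transcript. Apart from lengths and genes tested, the cause was not tested.

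The libraries of D0 and D5 share only a replicate number. Deviations of same-numbered libraries from their group means correlated at 0.0329, 0.0645 and 0.0277, each the highest of its library, which is a hint from the data and not from the design. With the replicate block 13558 genes, 4 higher chains and 4 lower chains passed the threshold. *Lama1* had at most 8 counts in any library and *Lama3* and *Lama4* at most 8 in a D0 library, which limits the precision of their changes.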
